A study of Mus musculus with 6 samples.

Results

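The nuclear-encoded subunits of the mitochondrial respiratory chain and of the ATP synthase were examined by Ribo-STAMP in primary mouse cortical neurons. Members were the protein-coding nuclear genes whose GENCODE symbol begins with Ndufa, Ndufb, Ndufc, Ndufs or Ndufv and a digit, with Uqcr, with Cox4 to Cox8 and a subunit letter, or with Atp5, together with Cyc1 and Sdha to Sdhd. This rule gave 86 entries, or 85 symbols, among the 31053 genes listed. It uses names only and no measured value. It leaves out the acyl carrier subunit Ndufab1 and all assembly factors, and it takes in Atp5s, which is related to the ATP synthase but is not a subunit. Ndufa4, named after complex I, is treated here as the complex IV subunit that it is known to be.

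All neurons came from the cortex of wild-type C57BL/6J embryos at E18. They were infected with AAV at DIV 6 and collected at DIV 14, and none received BDNF. Dox at 1 μg per ml was added for 48 h. By their labels the groups differed in the construct alone: 3 libraries expressed RPL10A-STAMP and 3 expressed RPL22-STAMP, each a fusion of the cytidine deaminase rAPOBEC1 with a protein of the large ribosomal subunit. The synapsin promoter drove the Dox-responsive transactivator, so expression was directed to neurons, whereas RNA was taken from the whole dish. Floxuridine was given at DIV 3 to hold back dividing cells.

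The respiratory chain passes electrons from NADH (complex I) and succinate (complex II) through complex III and cytochrome c to complex IV, which reduces oxygen. Complexes I, III and IV pump protons, and the ATP synthase uses the resulting gradient to make ATP, which neurons need for ion pumping and synaptic transmission. Most subunits are encoded in the nucleus, translated on cytosolic ribosomes and imported. The remainder are encoded in mitochondrial DNA and translated on mitochondrial ribosomes, which carry neither RPL10A nor RPL22.

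The measurement is EPR, the number of C-to-U edits in a gene divided by the reads counted for it. It is a ratio and not an RNA level, and the reads behind each value are unknown, so no counting error or detection limit can be given. A gene with EPR above 0 is called edited, and a gene listed at 0 may have had no edits or no reads. In a dish of mixed cells, a lower EPR from fewer edited cells and one from fewer edits per cell cannot be told apart. The labels do not state whether the libraries of a variant came from separate cultures. The paper's methods describe the bulk RNA as taken from biological replicates, and its results also speak of technical replicates of the variants. The p values here measure only the spread between these libraries. No sequences are printed, because each value is a sum over a whole gene.

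Of the 86 entries, 68 (79.1%) were edited in all 6 libraries, against 8046 of the 31053 genes listed. Another 12 of the 86 were edited in some libraries and 6 were listed at 0 in every library. No subunit gene had an EPR above 1. The 68 genes had low EPR. Their mean EPR over the 6 libraries had a median of 0.00701, against 0.0135 for all 8046 genes edited in every library. Of the 68, 55 lay below that median gene, and 50 (73.5%) lay below 0.01, against 32.6% of all genes edited in every library. These shares describe the genes and carry no test, since genes are not replicates.

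The low position was present in each library. With RPL10A-STAMP the median subunit gene had an EPR of 0.00634, 0.00721 and 0.00658 in replicates 1, 2 and 3, where the median of all genes edited in every library was 0.0120, 0.0153 and 0.0161. With RPL22-STAMP it had 0.00523, 0.00717 and 0.00730, where the median of all was 0.00907, 0.0129 and 0.0112. The median subunit gene thus stood at percentile 20.4, 18.6 and 13.9 in the RPL10A-STAMP libraries. In the RPL22-STAMP libraries it stood at 22.5, 21.8 and 29.6. Averaged over the 6 libraries the percentile was 21.1, and it was 22.7 when ranked among all genes edited in the library. The RPL22-STAMP percentiles were higher without overlap, but the variants overlapped with the GC content trend removed (21.3, 24.2 and 22.5 against 25.3, 20.5 and 31.9), with the length trend removed (16.1, 14.8 and 13.5 against 14.7, 13.4 and 14.8), and without genes that have at least 10% of their runs copied elsewhere (20.2, 18.3 and 13.3 against 24.9, 18.7 and 26.4). Replicates of a subunit gene scattered about as much as those of other genes: the median coefficient of variation was 25.1% for RPL10A-STAMP and 28.2% for the other variant, against 28.0% and 32.1% over all genes edited in every library.

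**Figure D1:**
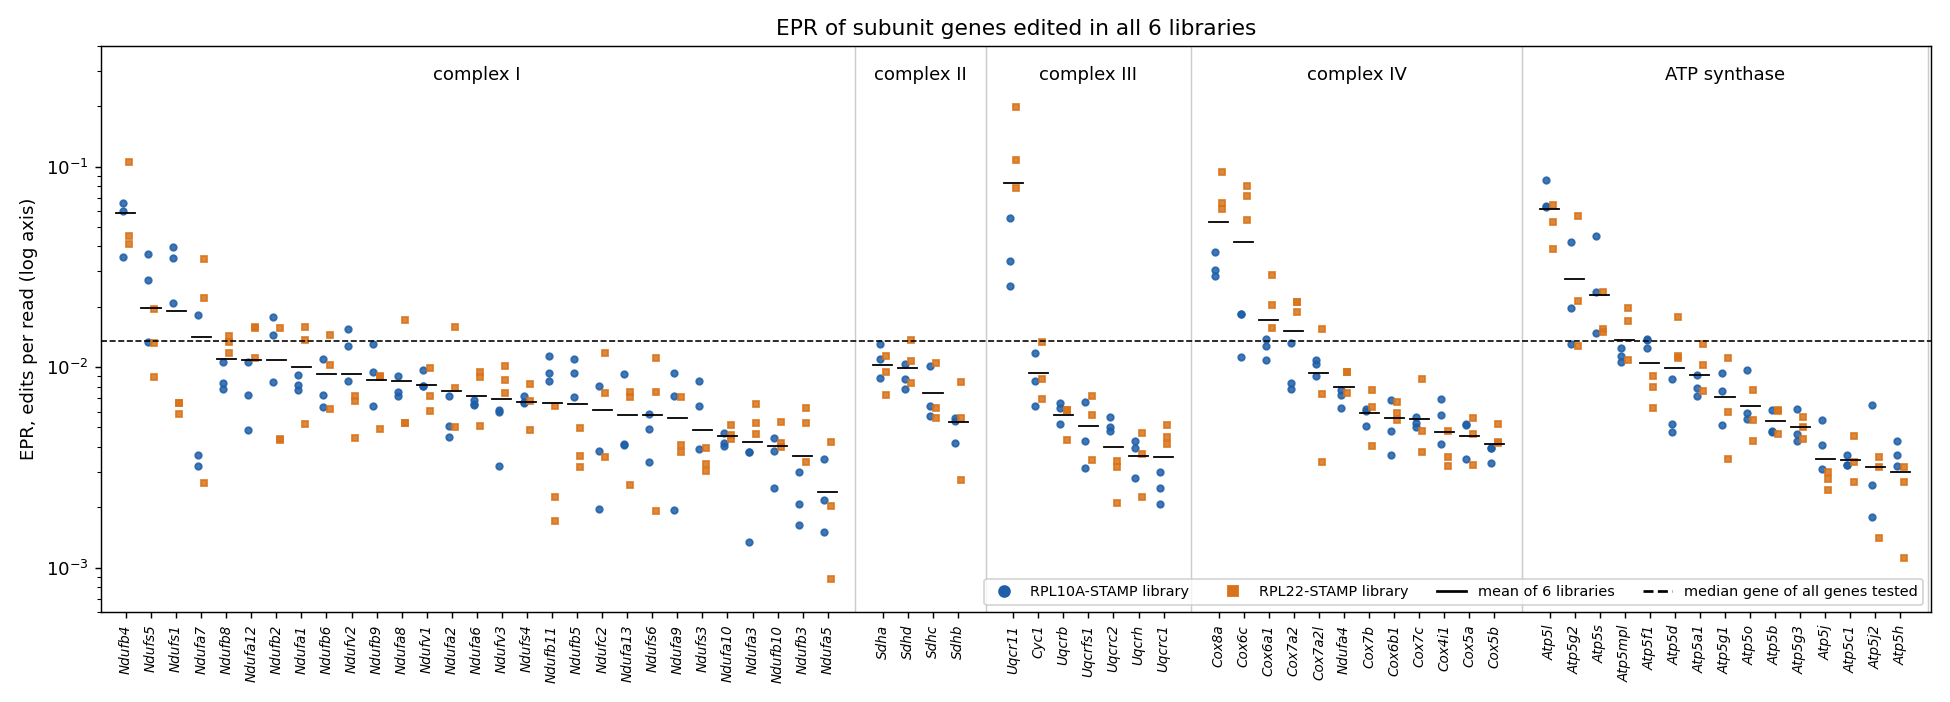
EPR (edits per read, log axis) of subunit genes edited in all 6 libraries (1 is not shown), grouped by complex and ordered by mean. Circles are RPL10A-STAMP libraries, squares are RPL22-STAMP libraries, short bars are means of 6, and the dashed line is the median gene of all tested (0.0135), above which 13 subunit genes lie.

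The low level was shared by all 5 complexes. The median of mean EPR was 0.00705 over 30 complex I genes, 0.00868 over the 4 complex II genes, 0.00508 over 7 complex III genes, 0.00691 over 12 complex IV genes and 0.00711 over 15 ATP synthase genes. The spread within a complex was far wider than between these medians. Complex I ran from 0.00238 for Ndufa5 to 0.0589 for Ndufb4, complex III from 0.00356 for Uqcrc1 to 0.0831 for Uqcr11, and the ATP synthase from 0.00301 for Atp5h to 0.0613 for Atp5l. Complex II, where Sdha is the flavoprotein, Sdhb the iron-sulfur subunit and Sdhc and Sdhd anchor both in the membrane, stayed within 0.00531 to 0.0102.

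The highest and lowest subunit genes differed 35-fold in mean EPR. Uqcr11, a small supernumerary subunit of complex III, was the highest, followed by Atp5l, the g subunit in the membrane part of the ATP synthase. Atp5l had an EPR of 0.0637, 0.0628 and 0.0855 with RPL10A-STAMP against 0.0389, 0.0530 and 0.0642 with RPL22-STAMP, and the variants overlapped. Ndufb4, an accessory subunit in the membrane arm of complex I, had 0.0655, 0.0604 and 0.0354 against 0.0450, 0.106 and 0.0411, again with overlap. Cox8a (0.0529), Cox6c (0.0422) and Atp5g2 (0.0275) came next.

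The lowest were Ndufa5, an accessory subunit of complex I, Atp5h, the d subunit of the peripheral stalk, and Atp5j2, the f subunit of the membrane part. Ndufa5 had an EPR of 0.00216, 0.00151 and 0.00347 with RPL10A-STAMP against 0.000872, 0.00422 and 0.00202 with RPL22-STAMP. Atp5h had 0.00321, 0.00363 and 0.00426 against 0.00111, 0.00268 and 0.00316. Atp5j2 had 0.00258, 0.00178 and 0.00645 against 0.00356, 0.00319 and 0.00140. The variants overlapped in Ndufa5 and Atp5j2, and in Atp5h the deposited RPL22-STAMP values lay below the RPL10A-STAMP values (limma adjusted p = 0.641 after scaling).

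The 6 subunit genes with the highest EPR all had stretches of their transcript repeated elsewhere in the nuclear genome. The share of 50-base runs with an exact copy outside the gene was between 13.9% and 88.4% in these 6 (Atp5g2 the highest, Atp5l 84.0%, Ndufb4 41.3%, Uqcr11 39.1%, Cox8a 21.8%, Cox6c 13.9%) and had a median of 0.7% in the other tested subunit genes. Reads were kept with up to 10 locations, and reads and edits of a gene and its copy could be split differently. The part of the copies in these values was not tested. Low values also occurred at large copied shares. Cox7c, a small complex IV subunit, had 71.5% of its runs copied and a mean EPR of 0.00553, and Uqcrb, a complex III subunit, had 61.5% copied and 0.00578. The 25 genes with at least 10% copied had a median of 0.00711, the 43 others 0.00691. Spearman's rho of mean EPR with the copied share was 0.16 over the 68 genes. Among the 28 genes without any copied run the highest were Atp5s (0.0229) and Ndufs1 (0.0191). These stood at ranks 7 and 9 by mean EPR, so the statement on the 6 highest depends on where the cut falls. Exact copies were more common among the subunit genes than among all genes tested: 40 (58.8%) had at least 1 copied run against 39.6%, and 7 (10.3%) had over 50% copied against 3.46%.

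**Figure D2:**
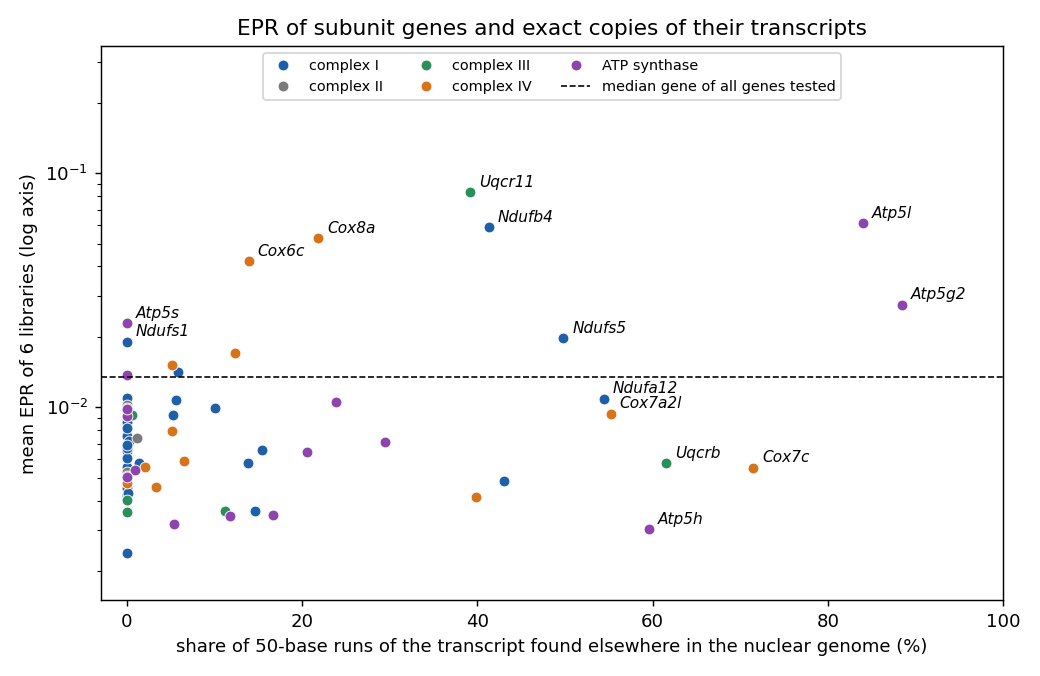
Mean EPR of 6 libraries (log axis) against the share of each transcript's 50-base runs found elsewhere in the nuclear genome (GRCm38), for the 68 tested subunit genes coloured by complex; the dashed line is the median gene of all tested. The 6 highest genes lie at 13.9% or more, while genes such as Cox7c and Uqcrb combine a large copied share with a low EPR.

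The subunit transcripts were short. Their median length was 863 bases against 3455 over all genes tested, with a coding sequence of 438 against 1461 bases, a 3′ UTR of 172 against 1299 bases and 4 exons against 10. Median GC content was similar (50.5% against 48.9%). The low EPR remained among genes of like length. Up to 1000 bases, 39 subunit genes had a median of 0.00720 and 335 other genes 0.0114. From 1000 to 2000 bases the values were 0.00621 over 22 subunit genes and 0.0116 over 1225 others, and from 2000 to 5000 bases 0.00917 over 7 and 0.0134 over 4358. With the trend against length removed from each library, the percentile of the median subunit gene, averaged over the 6 libraries, was 14.6. This was lower than without the removal (21.1).

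For a sense of the lower end of the scale, 3 of the mitochondrially encoded mRNAs were edited in all libraries and have no run copied in the nuclear genome. They were singled out after their values were seen. Their mean EPR was 0.00441 for mt-Nd1, 0.00485 for mt-Cytb and 0.000647 for mt-Nd6, so they did not share a common level. Replicates of mt-Nd1 lay close together, from 0.00417 to 0.00467, whereas those of mt-Nd6 had coefficients of variation of 41.5% (RPL10A-STAMP) and 56.2% (the other variant). Of the 68 nuclear-encoded subunit genes, 13 (19.1%) had a mean EPR below that of mt-Nd1, against 3.08% of all genes tested, and 0 had one below that of mt-Nd6, against 0 of all genes tested. The 13 include the core protein Uqcrc2 (0.00401) and the F1 subunit Atp5c1 (0.00345). No library without a deaminase was analysed here, so how much of these low values is background was not tested.

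Whether the choice of construct alters the readout was asked by comparing the variants. By the paper's methods RPL10A was joined to the C terminus of the deaminase and RPL22 to its N terminus. Effects of the ribosomal protein and of the fusion design therefore cannot be told apart. Each library was first brought to a common median, log2(EPR + 0.01) was fitted with limma across all 8046 genes edited in every library, and a gene was called at a Benjamini-Hochberg adjusted p below 0.05. Negative log2 fold changes mean higher EPR with RPL22-STAMP, and the added 0.01 shrinks the changes of low genes. Of the 68 subunit genes, 8 (11.8%) were called, where 14.3% of all genes tested were. In the RPL22-STAMP direction 7 (10.3%) were called, where 5.77% of all genes tested were, and in the RPL10A-STAMP direction 1 (1.47%), where 8.51% were. Of the 7, 4 were complex IV subunits (Cox6c, Cox8a, Cox7a2 and Cox6a1), and the others were Uqcr11, Atp5d and Ndufv3. The 1 gene higher with RPL10A-STAMP was Ndufs1.

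The log2 fold change was below 0 in 53 of 68 (77.9%), against 51.3% of all genes tested. Its median was -0.16 over the subunit genes (quartiles -0.37 and -0.02) and -0.01 over all genes tested. After scaling, the 3 RPL22-STAMP libraries lay above all 3 RPL10A-STAMP libraries in 22 subunit genes (32.4%, against 17.1% of all genes tested), and the reverse held in 5 (7.35%, against 20%). These 5 were Ndufs1, Ndufv2, Ndufb5, Ndufb11 and Atp5f1. Without scaling, the median log2 fold change was -0.03 over the subunit genes and 0.18 over all genes tested, and 88.1% of the calls over all genes were higher with RPL10A-STAMP against 59.6% with scaling. Of the 8 subunit genes, Cox6c, Cox8a, Uqcr11 and Ndufs1 remained called without scaling. The share of subunit genes below 0 depended on the setting. It was 57.4% without scaling (32.8% of all genes tested), 66.2% with the GC content trend removed (49.6%) and 55.9% with the transcript length trend removed (50.2%). With the length trend removed, the median was -0.02 and the calls were 5 higher with RPL22-STAMP and 3 higher with RPL10A-STAMP. Over all 8039 genes tested under that setting 1129 were called, 57.2% of them higher with RPL10A-STAMP.

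**Figure D3:**
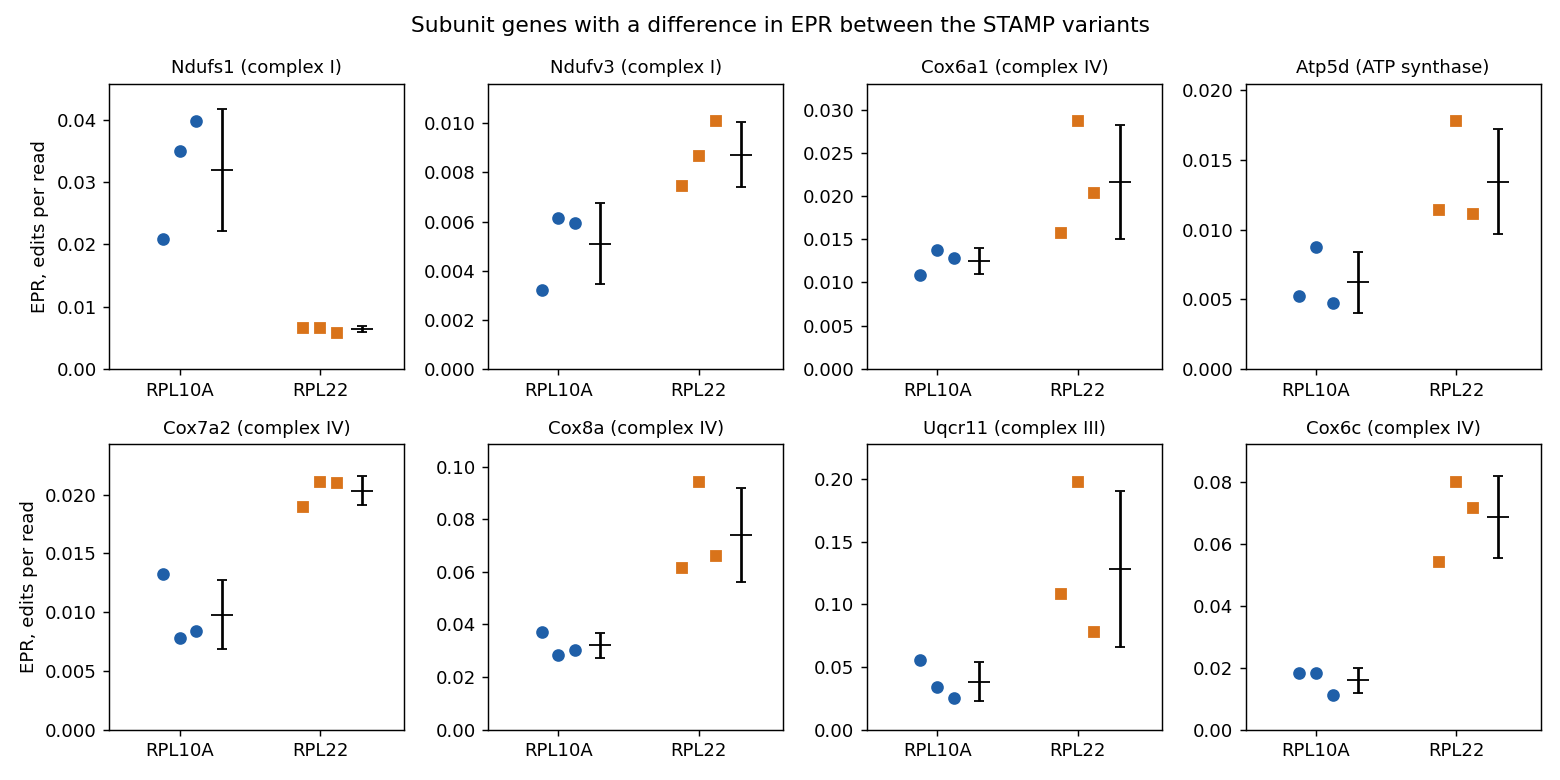
EPR (edits per read, linear axes from 0) of the 8 called subunit genes in 3 RPL10A-STAMP libraries (circles) and 3 RPL22-STAMP libraries (squares), as deposited; black marks are means with SD (n = 3). In each panel the libraries of the variants do not overlap, with Ndufs1 higher with RPL10A-STAMP and the other 7 higher with RPL22-STAMP.

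Ndufs1 (ENSMUSG00000025968) lies on the minus strand of chromosome 1 from 63143596 to 63176833 (GRCm38) and encodes the largest iron-sulfur subunit of complex I, part of the arm that oxidises NADH. Its EPR was 0.0209, 0.0349 and 0.0398 in the RPL10A-STAMP libraries and 0.00662, 0.00662 and 0.00581 in the RPL22-STAMP libraries. The RPL22-STAMP values were almost equal, and the lowest RPL10A-STAMP value was well above them. Averages came to 0.0319 ± 0.00984 (SD, n = 3) against 0.00635 ± 0.000471 (SD, n = 3), a ratio of 5.02. The log2 fold change was 1.09 (standard error 0.15, limma adjusted p = 0.00636). It was 0.93 with the GC content trend of each library removed (limma adjusted p = 0.0155), and the gene stayed called when any single library was left out. No run of its transcript was copied elsewhere in the nuclear genome. On the opposite strand it overlaps the lincRNA Ino80dos and the gene Eef1b2 over 6.16% of its exons. The library kit was stranded, but whether edits and reads of these libraries were counted by strand is not given in the sources used here.

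No other core subunit of complex I was called. Ndufv2, an iron-sulfur subunit next to the NADH-binding subunit Ndufv1, had an EPR of 0.00848, 0.0128 and 0.0154 with RPL10A-STAMP against 0.00444, 0.00717 and 0.00678 with RPL22-STAMP (log2 fold change 0.28, limma adjusted p = 0.180). Its libraries did not overlap. Ndufv1 and Ndufs3, the latter in the quinone-binding arm, had log2 fold changes of -0.10 and 0.13. Among the 25 accessory genes tested 21 had a log2 fold change below 0.

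Ndufs7, a core iron-sulfur subunit close to the quinone site, was outside the test because it was at 0 in RPL22-STAMP libraries. It had an EPR of 0.00971, 0.0147 and 0.00885 with RPL10A-STAMP against 0, 0.00351 and 0 with RPL22-STAMP. The libraries did not overlap (two-sided exact permutation test, p = 0.1, which is the lowest value possible for 3 against 3). With a wider filter, which tested genes edited in 3 or more libraries, its limma adjusted p was 0.0569. Ndufs8, also a core iron-sulfur subunit, had 0, 0.00198 and 0.00198 against 0.00387, 0.00301 and 0.

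Among the accessory subunits of complex I, Ndufv3 (ENSMUSG00000024038, chromosome 17 from 31520115 to 31531331, plus strand), which sits at the NADH-oxidising end, was called. Its EPR was 0.00320, 0.00614 and 0.00594 with RPL10A-STAMP against 0.00743, 0.00865 and 0.0101 with RPL22-STAMP. The lowest RPL22-STAMP value was above the highest RPL10A-STAMP value by less than the spread within either variant. The log2 fold change was -0.48 (standard error 0.12, limma adjusted p = 0.0415), and the call was lost when any single library was left out, with adjusted p from 0.0610 (without RPL22-STAMP replicate 2) to 0.122 (without RPL10A-STAMP replicate 1), and without scaling (0.210). With the GC content trend removed it had a log2 fold change of -0.19 and a limma adjusted p of 0.380.

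Other accessory genes came close to the threshold without passing it. Ndufa12 had an EPR of 0.00486, 0.0106 and 0.00727 with RPL10A-STAMP against 0.0159, 0.0111 and 0.0157 with RPL22-STAMP (log2 fold change -0.68, limma adjusted p = 0.0570), with 54.4% of its runs copied elsewhere. Ndufa3 had 0.00134, 0.00376 and 0.00376 against 0.00461, 0.00529 and 0.00657 (-0.39, limma adjusted p = 0.0643). Ndufb8 had 0.0106, 0.00831 and 0.00775 against 0.0117, 0.0134 and 0.0143 (-0.49, limma adjusted p = 0.0795). Ndufb3 had 0.00207, 0.00301 and 0.00163 against 0.00527, 0.00335 and 0.00627 (-0.40, limma adjusted p = 0.0943). In all of these genes RPL22-STAMP was higher, without overlap. Ndufb11 went the other way, with 0.00929, 0.0114 and 0.00855 against 0.00170, 0.00641 and 0.00226 (0.45, limma adjusted p = 0.0947), as did Ndufb5 with 0.00706, 0.00930 and 0.0110 against 0.00360, 0.00316 and 0.00498 (0.30, limma adjusted p = 0.136). Both were called with the transcript length trend removed (limma adjusted p = 0.0456 and 0.0381).

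None of the 4 complex II genes was called. Their log2 fold changes were all below 0, from -0.08 for Sdha to -0.33 for Sdhd, and the lowest limma adjusted p was 0.170.

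In complex III, Uqcr11 (ENSMUSG00000020163, chromosome 10 from 80402997 to 80406830, minus strand) was the 1 called gene of 7. Its EPR was 0.0556, 0.0337 and 0.0255 with RPL10A-STAMP against 0.108, 0.198 and 0.0781 with RPL22-STAMP, the highest value of any subunit gene in each RPL22-STAMP library. The variants did not overlap, but the RPL22-STAMP libraries spread widely. Averages came to 0.0382 ± 0.0155 (SD, n = 3) against 0.128 ± 0.0626 (SD, n = 3), with a log2 fold change of -1.78 (standard error 0.38, limma adjusted p = 0.0238). The call was lost without RPL10A-STAMP replicate 2 (limma adjusted p = 0.0793) or 3 (0.0805), without RPL22-STAMP replicate 1 (0.0603) or 2 (0.0643), and with the GC content trend removed (0.0594). Of its runs, 39.1% were copied elsewhere.

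The larger complex III subunits stayed low. Uqcrc1 and Uqcrc2, the core proteins facing the matrix, had log2 fold changes of -0.32 and 0.12. Uqcrc1 had an EPR of 0.00298, 0.00208 and 0.00249 against 0.00513, 0.00450 and 0.00415, without overlap (limma adjusted p = 0.104). The electron-carrying subunits Cyc1, cytochrome c1, and Uqcrfs1, the Rieske iron-sulfur protein, had -0.23 and -0.20, with overlapping libraries. Uqcr10 and Uqcrq were each at 0 in RPL22-STAMP replicate 3 and between 0.00221 and 0.0111 elsewhere.

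Complex IV held 4 of the 8 calls among 12 genes tested (33.3%), all higher with RPL22-STAMP, where 14.3% of all genes tested were called and 5.77% in that direction. These 4 encode small subunits that surround the mitochondrially encoded catalytic core. Cox6c (ENSMUSG00000014313) lies on the minus strand of chromosome 15 from 35925886 to 35938246. Its EPR was 0.0183, 0.0183 and 0.0112 with RPL10A-STAMP against 0.0541, 0.0800 and 0.0714 with RPL22-STAMP. Every RPL22-STAMP library was far above every RPL10A-STAMP library. Averages came to 0.0159 ± 0.00411 (SD, n = 3) against 0.0685 ± 0.0132 (SD, n = 3), a ratio of RPL22-STAMP over RPL10A-STAMP of 4.30. The log2 fold change was -1.87 (standard error 0.19, limma adjusted p = 0.00444), the largest in size among the subunit genes on this scale. With a pseudocount of 0.05 Uqcr11 was larger in size (-1.16 against -0.99), and Ndufs1 had the larger ratio of mean EPR. The gene stayed called under all 15 limma alternatives, with adjusted p from 0.00435 to 0.0442. Of its runs, 13.9% were copied elsewhere.

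Cox8a (ENSMUSG00000035885, chromosome 19 from 7215153 to 7217616, minus strand) had an EPR of 0.0373, 0.0284 and 0.0304 with RPL10A-STAMP against 0.0613, 0.0943 and 0.0659 with RPL22-STAMP. The variants did not overlap, and averages came to 0.0321 ± 0.00468 (SD, n = 3) against 0.0738 ± 0.0179 (SD, n = 3). The log2 fold change was -1.29 (standard error 0.19, limma adjusted p = 0.00815). It stayed called without any single library and was -0.94 with the GC content trend removed (limma adjusted p = 0.0301).

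Cox7a2 (ENSMUSG00000032330, chromosome 9 from 79755361 to 79759878, minus strand) had 0.0132, 0.00781 and 0.00836 against 0.0189, 0.0211 and 0.0210. The RPL22-STAMP libraries were close together and above the others. This gave a log2 fold change of -0.84 (standard error 0.18, limma adjusted p = 0.0276). Its call was lost without RPL10A-STAMP replicate 2 (limma adjusted p = 0.0924) or 3 (0.0976) and without RPL22-STAMP replicate 1 (0.0681), 2 (0.0536) or 3 (0.0754), as well as without scaling (0.0588).

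Cox6a1 (ENSMUSG00000041697, chromosome 5 from 115345642 to 115348981, minus strand) had 0.0109, 0.0138 and 0.0128 against 0.0157, 0.0287 and 0.0204. The variants were separate by a small gap. This gave a log2 fold change of -0.71 (standard error 0.13, limma adjusted p = 0.0174). It was no longer called without RPL10A-STAMP replicate 2 (limma adjusted p = 0.0598) or 3 (0.0724), without scaling (0.166), with the GC content trend removed (-0.36, 0.138) or with the length trend removed (-0.50, 0.0731).

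The remaining complex IV subunits had smaller differences. Cox4i1, Cox5a and Cox5b, other nuclear-encoded subunits around that core, had log2 fold changes of 0.05, -0.10 and -0.20, and Cox6b1, Cox7b and Cox7c had -0.22, -0.15 and -0.16. Ndufa4 had an EPR of 0.00728, 0.00768 and 0.00624 against 0.00739, 0.00940 and 0.00949 (-0.30, limma adjusted p = 0.151).

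Complex IV is the complex with the most paired isoforms, and the form known from muscle, lung, testis or hypoxia was often listed at 0. Such a value may mean no edits or no reads. Cox4i2, Cox6b2, Cox8b, Cox8c and Ndufa4l2 were listed at 0 in all 6 libraries, whereas Cox4i1, Cox6b1, Cox8a and Ndufa4 were edited in all. Cox6a2, the muscle form, had 0, 0.0185 and 0.0111 with RPL10A-STAMP against 0.0159, 0.00909 and 0 with RPL22-STAMP. Cox7a1, also a muscle form, had 0.0769 in RPL10A-STAMP replicate 1 and was at 0 elsewhere. Cox7a2l, a relative that takes part in joining complexes III and IV, had 0.00903, 0.0109 and 0.0104 against 0.00336, 0.00730 and 0.0154, with overlap (log2 fold change -0.01).

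Cox7b2, the testis form of Cox7b, had an EPR of 0.0556, 0.154 and 0.0476 with RPL10A-STAMP and was listed at 0 in all 3 RPL22-STAMP libraries. It was outside the main test. With the wider filter it was called (limma adjusted p = 0.0165, where 6.91% of all genes tested were called), and 5 subunit genes in all were called there. It passed that filter only through the libraries in which it is high, so this call gives no support for a difference. A two-sided exact permutation test gave p = 0.1, the lowest value possible for 3 against 3. No fold is given against a group listed at 0 with unknown reads. Cox7b, in contrast, had 0.00509, 0.00603 and 0.00620 against 0.00404, 0.00772 and 0.00633.

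In the ATP synthase, Atp5d (ENSMUSG00000003072, chromosome 10 from 80138632 to 80145818, plus strand), the δ subunit of the rotating central stalk, was the 1 called gene of 15. Its EPR was 0.00522, 0.00873 and 0.00473 with RPL10A-STAMP against 0.0114, 0.0178 and 0.0111 with RPL22-STAMP. The variants did not overlap, and the log2 fold change was -0.71 (standard error 0.15, limma adjusted p = 0.0232). It was called with only 1 of the 6 libraries left out, RPL22-STAMP replicate 3. Adjusted p was 0.0650, 0.0507 and 0.0885 without RPL10A-STAMP replicates 1, 2 and 3 and 0.0550 and 0.0631 without RPL22-STAMP replicates 1 and 2 (limma), and 0.0984 without scaling. It was 0.0503 with the wider filter and 0.191 with the GC content trend removed, where the log2 fold change was -0.35. No run of the transcript was copied.

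No other F1 subunit was called. The α and β subunits Atp5a1 and Atp5b, which form the catalytic head, had log2 fold changes of -0.34 and -0.17, and the γ subunit Atp5c1 had -0.11 (limma adjusted p = 0.151, 0.310 and 0.503). Atp5e, the ε subunit, had 0.00652, 0.00126 and 0.00123 against 0, 0.00280 and 0.00773. In the membrane part and stalk, Atp5f1, the b subunit, had 0.0125, 0.0136 and 0.0138 against 0.00622, 0.00794 and 0.00903. Its libraries did not overlap and RPL10A-STAMP was higher (log2 fold change 0.21, limma adjusted p = 0.309). Atp5mpl, a small membrane subunit, had 0.0106, 0.0114 and 0.0124 against 0.0170, 0.0197 and 0.0109 (-0.47, limma adjusted p = 0.121). Atp5k, the e subunit, was at 0 in RPL22-STAMP replicate 3 and between 0.00131 and 0.00195 elsewhere.

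Atp5g1, Atp5g2 and Atp5g3 encode the same mature c subunit of the rotor ring behind different import sequences. Atp5g1 had an EPR of 0.00759, 0.00515 and 0.00937 with RPL10A-STAMP against 0.00348, 0.0111 and 0.00595 with RPL22-STAMP. Atp5g2 had 0.0130, 0.0421 and 0.0196 against 0.0213, 0.0127 and 0.0566. Atp5g3 had 0.00461, 0.00621 and 0.00426 against 0.00503, 0.00564 and 0.00440. Each of the 3 overlapped between variants. Atp5g2 was above both others in every library, and 88.4% of its runs were copied elsewhere, against 29.4% in Atp5g1 and none in Atp5g3. Atp5o, the subunit that joins the stalk to F1, has 2 Ensembl entries that share exons. The one that was edited had 0.00551, 0.00968 and 0.00592 against 0.00430, 0.00543 and 0.00772, and the other was at 0 throughout.

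The remaining complex I genes outside the test were Ndufa11 (0.0110, 0 and 0.0103 with RPL10A-STAMP, 0, 0.00489 and 0 with RPL22-STAMP), Ndufb7 (0, 0 and 0.00714 against 0.00427, 0.00500 and 0) and Ndufc1 (0.00287, 0.00604 and 0 against 0.00663, 0.0167 and 0.00722). In Ndufc1 every RPL22-STAMP value was above every RPL10A-STAMP value (exact permutation test, two-sided, p = 0.1), and in the other 2 the variants overlapped.

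Differences between the variants ran with base composition. Across the 68 subunit genes Spearman's rho of the log2 fold change with transcript GC content was -0.382, and across 8039 genes tested with a known transcript it was -0.467. With transcript length rho was 0.42 over the subunit genes and 0.182 over all. These are relations across genes of the same 6 libraries, and genes are not independent replicates. Called genes higher with RPL22-STAMP were GC-rich in the case of Atp5d (59.3%), Uqcr11 (58.9%), Cox6a1 (58.8%), Cox8a (58.5%) and Ndufv3 (56.0%), but not of Cox7a2 (51.9%) and Cox6c (47.2%). Ndufs1 had 45.1%.

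With the GC content trend removed from each library, 5 subunit genes were called. Of these, 4 were higher with RPL22-STAMP, where 3.78% of all genes tested were called in that direction, and 1 was higher with RPL10A-STAMP, where 4.47% were. Cox6c, Cox8a and Ndufs1 remained, and Cox7b (log2 fold change -0.45, limma adjusted p = 0.0433) and Ndufb3 (-0.57, 0.0465), an accessory complex I subunit, were added. Cox7b had close deposited means (0.00577 with RPL10A-STAMP against 0.00603 with RPL22-STAMP), overlapping deposited libraries and -0.15 in the main fit (limma adjusted p = 0.385). It was called under 1 of the 15 limma alternatives, and Ndufb3 under 2. With the trend removed, the median log2 fold change of the subunit genes was -0.10.

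**Figure D4:**
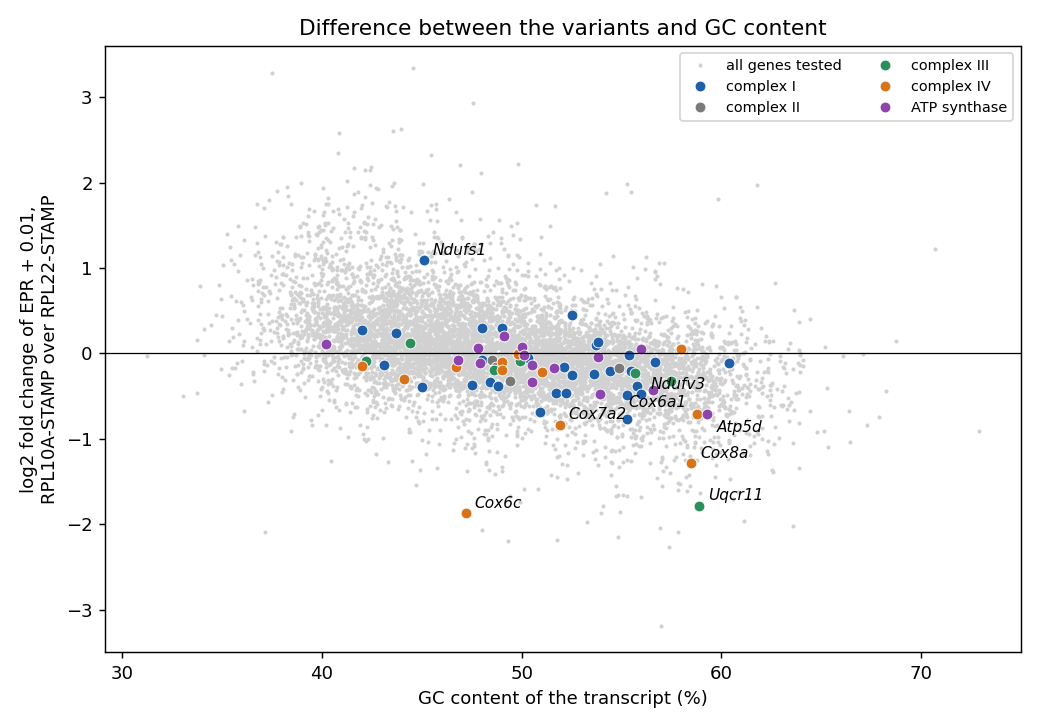
Log2 fold change of EPR + 0.01 (RPL10A-STAMP over RPL22-STAMP, scaled libraries) against transcript GC content for all genes tested (grey) and for the 68 subunit genes coloured by complex; the 8 called subunit genes are named. Log2 fold changes decline with GC content among all genes (rho -0.467), and Cox6c lies apart at 47.2% GC with -1.87.

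Other lists of the pathway are described by their counts and medians. Of 52 assembly factors, 33 were edited in all 6 libraries, with a median mean EPR of 0.0145, at percentile 54.3 of all genes tested. Of these, 3 (9.09%) were called, where 14.3% of all genes tested were. Tmem126b, which helps build the membrane arm of complex I, was higher with RPL10A-STAMP, at 0.0150, 0.0244 and 0.0298 against 0.00592, 0.00438 and 0.00734 (log2 fold change 0.81, limma adjusted p = 0.0221). Ndufaf7, a methyltransferase needed to assemble complex I, was higher with RPL22-STAMP, at 0.00514, 0.00740 and 0.0110 against 0.0191, 0.0120 and 0.0200 (-0.82, limma adjusted p = 0.0450). Higd2a, which acts in complex IV and supercomplex assembly, was also higher with RPL22-STAMP, at 0.0188, 0.0132 and 0.0123 against 0.0172, 0.0302 and 0.0324, with 1 value inside the RPL10A-STAMP range before scaling (-0.78, limma adjusted p = 0.0479). Tmem126b kept its call under 8, Ndufaf7 under 3 and Higd2a under 2 of 16 alternatives.

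Of 13 mitochondrially encoded subunits, 12 were edited in all libraries, with a median of 0.00911 at percentile 26.8, and none was called. With the GC content trend removed 8 of the 12 were called, all higher with RPL22-STAMP (limma adjusted p from 0.00863 to 0.0299). Over all genes tested 3.78% were called in that direction. The deposited means differed little, for instance 0.00441 with RPL10A-STAMP against 0.00440 for mt-Nd1 and 0.00488 against 0.00482 for mt-Cytb. Of those called, mt-Co1 (0.00538 against 0.00554) and mt-Nd3 (0.549 against 0.591) had the higher deposited mean with RPL22-STAMP. Those copied in full in the nuclear genome had mean EPR far above 1, at 104 for mt-Co2, 109 for mt-Co3, 127 for mt-Atp6 and 135 for mt-Nd4l. Of the 18 listed genes for mobile electron carriers, their synthesis and the ATP synthase inhibitor, 11 were tested, with a median of 0.0106, and none was called. Of 13 transcription factors and coactivators of mitochondrial biogenesis, 8 were tested, with a median of 0.0217. Gabpa, a subunit of a factor that binds the promoters of many respiratory chain genes, was the 1 called, at 0.0216, 0.0370 and 0.0517 with RPL10A-STAMP against 0.00772, 0.0135 and 0.00693 with RPL22-STAMP (0.99, limma adjusted p = 0.0202). It kept its call under 8 of 16 alternatives. Gabpa overlaps Atp5j on the opposite strand over 6.98% of its exons. Atp5j, which encodes the F6 stalk subunit, had a log2 fold change of 0.05.

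EPR of cell type markers was checked because the dish can hold glia. As a ratio, EPR does not measure how much glial RNA a dish held. All 10 neuronal markers were edited in every library, as were 6 of 8 astrocyte, 1 of 8 oligodendrocyte and 0 of 8 microglial markers. The summed EPR of the astrocyte list was 0.277 to 0.353 with RPL10A-STAMP and 0.167 to 0.334 with RPL22-STAMP, and that of the neuronal list 0.239 to 0.289 and 0.238 to 0.304. Both ranges overlap between the variants. The 6 astrocyte markers tested had a median mean EPR of 0.0418, at percentile 93.4 of all genes tested. The 10 neuronal markers had 0.0238, at percentile 78.4. After scaling, 3 of the 10 neuronal markers were called, all higher with RPL22-STAMP: Syn1 (log2 fold change -0.82, limma adjusted p = 0.00814), Camk2a (-0.79, 0.0127) and Gad2 (-0.54, 0.0446). Over all genes tested 14.3% were called, and 5.77% in that direction. Of the 6 astrocyte markers tested 0 were called. The median log2 fold change was -0.18 over the neuronal list, -0.19 over the astrocyte markers tested, -0.16 over the subunit genes and -0.01 over all genes tested. The sums of the oligodendrocyte list (0.0175 to 0.115 and 0.0762 to 0.0957) and of the microglial list (0 to 0.0143 and 0 to 0.0714) overlap as well. The part of glial RNA in the subunit values was not tested.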

How the data were processed

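Ribo-STAMP was measured in 3 RPL10A-STAMP and 3 RPL22-STAMP libraries. The authors trimmed the reads, mapped them with STAR to mm10 (up to 10 locations), called edits with SAILOR and counted reads with featureCounts. The deposited value is a ratio per gene (edits over reads), not normalized between libraries. The annotation used for counting is not given in the sources used here.

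Gene names came from GENCODE mouse release 21 (31011 of 31053 identifiers matched). The members and gene lists were chosen with earlier results of these data known. Genes edited in all 6 libraries were tested. Each library was scaled to a common median, and log2(EPR + 0.01) was fitted with limma 3.58.1 (variance trend, Benjamini-Hochberg, threshold 0.05) in R 4.3.3, tested on simulated data. The text names subunit genes that were called, the 3 highest and 3 lowest, those at 0 in a library, isoform sets and called genes of the other lists, and adds genes without overlap or near the threshold. Alternatives changed scaling, pseudocount (0.001, 0.05), filter, replicate block, GC content and length trends (spline, 4 degrees of freedom), test and libraries used. Exact 50-base copies were searched in GRCm38 with numba 0.67.0 in Python 3.11.15. Tables and plots were made with matplotlib 3.10.9, scipy 1.17.1, pandas 2.3.3 and numpy 2.4.6. The values of 1 gene are not reported here.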

Additional observations from a re-analysis of the deposited data

How the results depend on the processing

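None of the 8 called subunit genes changed direction, but 28 of the 68 had a log2 fold change that turned sign under at least 1 alternative, among them Ndufv1, Ndufv2, Uqcrc2, Cox5a and Atp5c1. Against 1149 calls over all genes, 754 were made with genes edited in at least 3 libraries, 569 with no filter, 603 with the replicate number as a block, 663 with the GC content trend removed, 227 with that and the block together and 0 with the methods' test (1996 genes and 15 subunit genes at an unadjusted p under 0.05). Against 8 subunit genes, the calls were 4 without scaling, 5 with the wider filter (Cox7b2 among them) and 5 with no filter. They were 5 with the GC trend removed, 1 with that and the block and 0 with the methods' test. When genes with at least 10% copied runs were left out, 4 of the remaining 43 were called, where 14.3% of all genes tested were called in the main fit. Leaving out 1 library gave 369 to 873 calls over all genes and 3 to 6 over the subunit genes, namely 667 and 6, 428 and 3, and 369 and 3 without RPL10A-STAMP replicates 1, 2 and 3, and 873 and 4, 746 and 6, and 609 and 6 without RPL22-STAMP replicates 1, 2 and 3. The median log2 fold change of the subunit genes, -0.16, was -0.031 without scaling, -0.35 and -0.047 with a pseudocount of 0.001 and 0.05, -0.10 with the GC trend removed, with or without the block, and -0.022 with the length trend removed. It was -0.20 to -0.13 with 1 library left out. Their median percentile, averaged over the 6 libraries, was 21.1 and fell to 14.6 with the length trend removed. The cause of these shifts was not tested. Same-numbered libraries showed little common deviation (r of 0.0437, 0.0464 and -0.00546). With 3 libraries per variant this cannot settle whether the numbers pair them. With the replicate block 6 of the 8 subunit genes were called, and Cox6a1 (limma adjusted p = 0.0528) and Ndufv3 (0.0955) were not. Unknown reads per gene limit what the low values show.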
